A study of Mus musculus with 6 samples.

Results

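The genes described here encode the junctions of epithelial cells: 12 claudins and 9 other components of tight junctions, 4 classical or related adhesion molecules of the epithelial surface, 12 components of desmosomes, and 6 further genes for apical polarity, epithelial splicing and the inhibition of membrane proteases. Of the 43 genes listed by symbol, 41 had at least 10 counts in at least 3 of the 6 samples and were kept, and all 41 were among the 18188 genes tested. The other listed genes were *Cldn10*, with 3, 4 and 4 counts in the controls and 5, 10 and 9 after LiCl, and *Dsg3*, with 0 counts in each control and 3, 0 and 10 after LiCl. They are given by their counts alone.

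The samples were ureters of NMRI wildtype mouse embryos at E12.5, dissected and kept for 18 h on transwell membranes in DMEM/F12 medium with GlutaMAX, antibiotics, non-essential amino acids and pyruvate. The treated group received 15 mM LiCl, which stabilises CTNNB1 through inhibition of GSK3B, and the control group received water. RNA-Seq of polyadenylated RNA was performed on 3 samples per group. How many ureters were in a sample, and whether samples came from separate litters, is not given in the sources used here, so p-values measure the spread between these samples. The whole ureter was sequenced, and in such bulk samples fewer cells of a type and less RNA per cell cannot be told apart.

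Epithelial cells are sealed to one another by tight junctions, in which claudin strands determine which ions pass between cells, while occludin, tricellulin and the junctional adhesion molecules organise the strands and ZO and cingulin proteins tie them to the cytoskeleton. Below them, E-cadherin holds cells together at adherens junctions through catenins, and desmosomes bind the keratin filaments of neighbouring cells through desmogleins and desmocollins, which are anchored by plakoglobin, plakophilins and desmoplakin. In the ureter such junctions seal the epithelium that becomes the urothelium, a barrier against urine, whereas the surrounding mesenchyme gives rise to fibroblasts and smooth muscle. Bulk samples do not show which cells expressed a listed gene.

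More junction genes were lower than higher after LiCl, with some members far on either side. Among the 41 genes, 22 (53.7%) had a lower and 4 (9.76%) a higher expression at an adjusted p under 0.05 (edgeR's quasi-likelihood test, Benjamini-Hochberg over all genes tested), against 22.4% lower and 21.1% higher of all genes tested. The median log2 fold change was -0.24 for the 41 genes and -0.01 for all genes tested. With a log2 fold change beyond 1 in either direction as a further condition, *Cldn8*, *Cldn23* and *Esrp2* were lower (7.32%, against 4.59% of all genes) and *Cldn2* and *Dsc3* were higher (4.88%, against 2.74% of all genes). All 3 LiCl samples lay below all 3 controls for 21 genes (51.2%, against 27.8% of all genes) and above them for 5 genes (12.2%, against 26.4% of all genes). *Cldn2*, with 12, 4 and 4 counts in the controls, met the count rule through the LiCl group alone. It is included in each of these shares of higher genes, which are in part a result of that rule. In the following, a gene rose or fell where its adjusted p passed 0.05, and expression values are CPM, counts scaled to a common library size with TMM factors, unless FPKM, which also corrects for transcript length, is named.

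**Figure D1:**
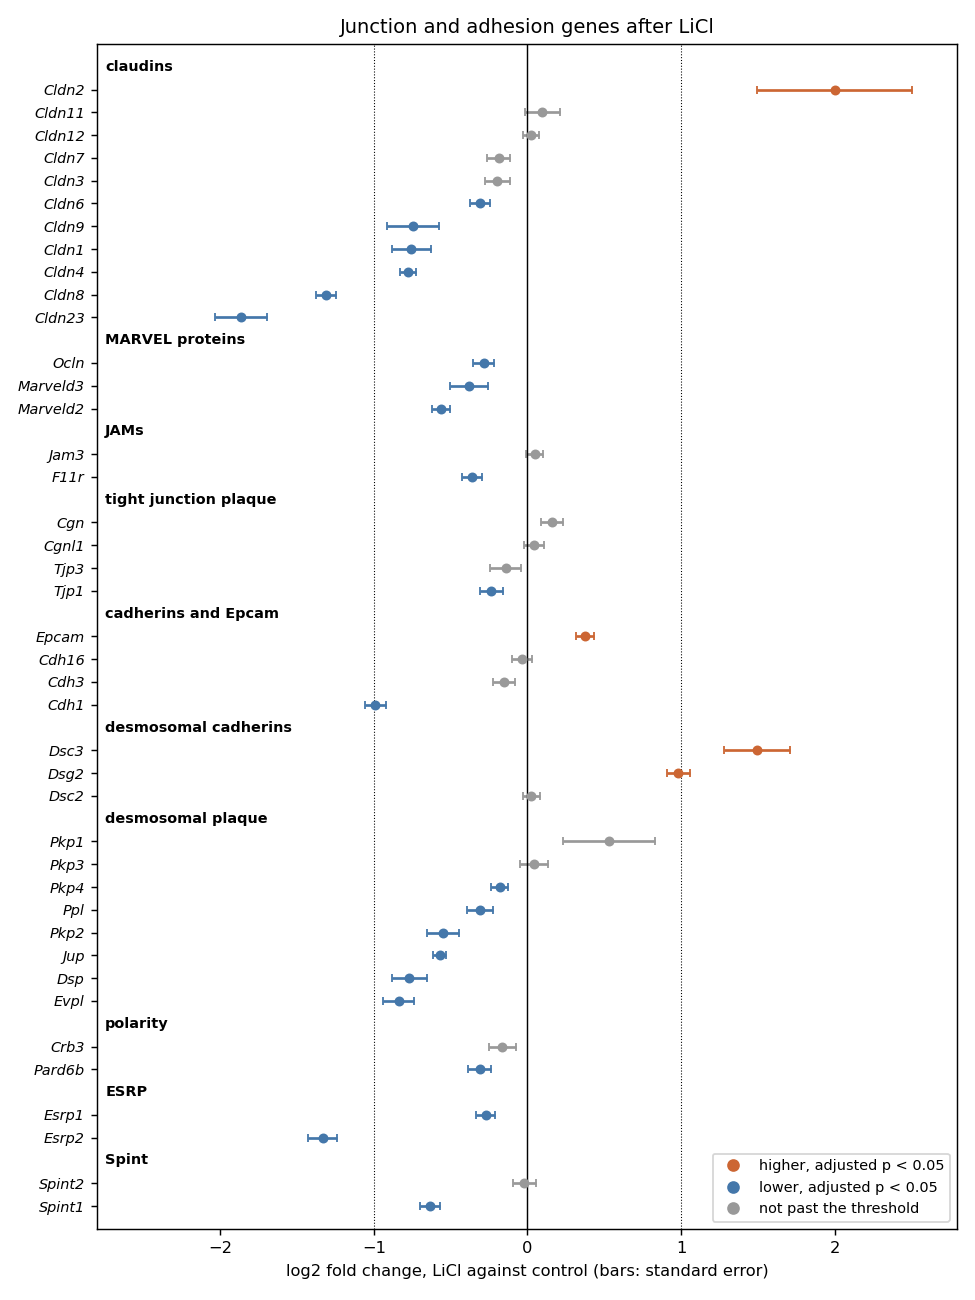
Log2 fold change of each of the 41 junction genes, LiCl against control, by junction type, as points with bars for the standard error from edgeR's fit. Values range from -1.87 for *Cldn23* to 2.00 for *Cldn2*, and most genes of the tight junction and of the desmosomal plaque lie left of 0 whereas *Dsg2*, *Dsc3*, *Epcam* and *Cldn2* lie right of it.

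Total counts lay between 28473436 and 31266945 per sample, with 25667 to 26788 genes detected. Samples of a group differed by more than sampling noise, with a chi-square per degree of freedom of 5.79 to 14.4, so no sample was a copy of another. The summed CPM of 19 broad epithelial markers, including the keratins *Krt8* and *Krt18*, was 1511 to 1817 in the controls and 1158 to 1216 after LiCl. Of these, 10 were lower (52.6%, against 22.4% of all genes tested) and 1 higher (5.26%, against 21.1%), with -0.46 as median log2 fold change. For 12 mesenchymal markers, including *Tbx18*, the sums were 8316 to 9389 and 5813 to 6398, with 10 markers lower (83.3%) and a median of -0.58. A lower share like that of the 41 junction genes (53.7%, median -0.24) was thus seen in these markers as well. No epithelial or mesenchymal marker was at 0 in any sample, so the markers of the labelled tissue were present. Sums of macrophage markers (1 higher and 4 lower of 8), neural crest and glia markers (1 lower of 8) and endothelial markers (1 lower of 10) overlapped between the groups, as did those of 8 erythroid markers (2 of 7 tested were higher). Those of 7 mesothelial markers (1 higher and 4 lower of 6 tested) and of 10 nephron markers (2 lower of 4 tested) were lower in each LiCl sample, and *Umod* and *Slc34a1* were at 0. *Krt19* had the highest CPM of the mesothelial list in every sample and is also among the broad epithelial markers, so these sums are not separate. *Upk1b* of the mesothelial list had means of 14.6 CPM in the controls and 3.77 after LiCl. The study used its protein as a marker of urothelial cells, so the lower sums do not measure mesothelium alone. *Lrp2* had the highest CPM of the nephron list in every sample, overlapped between the groups and did not pass the test (adjusted p 0.0862). *Krt19*, *Upk1b*, *Msln* and *Upk3b* were lower, whereas *Wt1* was higher and *Lrrn4* did not pass the test. For 10 skeletal muscle markers the sum was 10.2 to 11.4 CPM in the controls, 41.6 in LiCl replicate 1, 10.6 in replicate 2 and 83.6 in replicate 3, and 6 of the 8 tested were higher. Without LiCl replicates 1 and 3, the libraries with this signal, a single LiCl sample was left, which is then assumed to vary like the controls. In that fit 13 junction genes passed the test as lower instead of 22 and 3 as higher instead of 4. *Cldn2*, *Cldn6*, *Cldn9*, *Marveld3*, *Tjp1*, *Pkp2*, *Pkp4*, *Ppl*, *Pard6b* and *Esrp1* did not pass. The log2 fold changes of these genes kept their sign, with 1.996 for *Cldn2*, -0.28 for *Cldn6* and -0.83 for *Cldn9*, and *Tjp1* moved the most in proportion, from -0.24 to -0.13. The part of any of these markers in the junction results was not tested.

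The promoters of 4 junction genes are shown because they represent the directions seen: *Cldn4* and *Dsp*, a tight junction and a desmosome gene that fell, *Spint1*, which fell as well, and *Epcam*, which rose. Each is the RefSeq window of GRCm38.p6 from 250 bases before to 50 after the start, written 5′ to 3′ on the strand of the gene. The other positions of these genes are not given because the counts were made on GRCm39. Capitals mark the E-box CACCTG, or CAGGTG on the other strand, that SNAI and ZEB repressors recognise, and ACCGGT, the palindromic core of the motif of GRHL factors.
Cldn4 promoter, chr5:134946885-134947184, minus strand: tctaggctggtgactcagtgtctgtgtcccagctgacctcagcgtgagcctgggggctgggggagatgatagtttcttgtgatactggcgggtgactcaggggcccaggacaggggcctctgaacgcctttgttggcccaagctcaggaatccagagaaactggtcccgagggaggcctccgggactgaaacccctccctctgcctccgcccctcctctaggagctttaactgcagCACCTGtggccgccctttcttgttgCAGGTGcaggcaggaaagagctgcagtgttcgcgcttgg
Dsp promoter, chr13:38151044-38151343, plus strand: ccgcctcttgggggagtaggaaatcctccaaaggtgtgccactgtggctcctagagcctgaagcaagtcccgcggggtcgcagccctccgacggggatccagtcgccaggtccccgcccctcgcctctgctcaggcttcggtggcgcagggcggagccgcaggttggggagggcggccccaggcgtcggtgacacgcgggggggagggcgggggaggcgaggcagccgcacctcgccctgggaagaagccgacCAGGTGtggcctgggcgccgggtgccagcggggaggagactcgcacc
Spint1 promoter, chr2:119237110-119237409, plus strand: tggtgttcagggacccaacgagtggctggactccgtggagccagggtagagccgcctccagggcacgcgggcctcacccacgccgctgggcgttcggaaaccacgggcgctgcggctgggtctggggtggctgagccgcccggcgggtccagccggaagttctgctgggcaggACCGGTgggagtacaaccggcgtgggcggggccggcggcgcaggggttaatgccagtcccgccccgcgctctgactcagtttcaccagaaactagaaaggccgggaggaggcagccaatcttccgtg
Epcam promoter, chr17:87635729-87636028, plus strand: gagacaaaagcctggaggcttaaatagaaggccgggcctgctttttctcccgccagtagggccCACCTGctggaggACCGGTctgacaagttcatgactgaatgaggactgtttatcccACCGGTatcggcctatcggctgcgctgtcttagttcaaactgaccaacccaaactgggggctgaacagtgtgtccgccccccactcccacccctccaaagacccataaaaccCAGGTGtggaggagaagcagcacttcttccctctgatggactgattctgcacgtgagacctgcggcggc

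In the *Cldn4* window the E-box stood at positions -14 and 12 from the start, and in the *Dsp* window at position 4. The *Epcam* window held it at -187 and -19, and ACCGGT at -174 and -131. The *Spint1* window held ACCGGT at -77 and no E-box. A window was found for 23 of the 41 genes. The E-box was present in 14 of these 23 (60.9%), against 21.4% of the 12183 tested genes with a window and 20.2% of all 32851 windows. It stood in 8 of the 12 genes that fell, in 1 of the 2 that rose, and in 5 of the 9 others, so it was not restricted to genes of one direction. ACCGGT was found in *Spint1* and *Epcam* alone (8.70% of 23, against 3.88% of tested genes and 2.33% of all windows). CTTTGA, the core of the TCF/LEF motif, and TGTTTAC, a forkhead motif, were in none of the 23 windows, against 14.3% and 3.21% of tested genes. Both strands were searched, the motifs did not overlap in the windows shown, and these matches describe letters in a short window and carry no test.

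*Cldn8*, *Cldn4* and *Cldn6* were abundant claudins that fell, and *Cldn6* had the smallest change of them. *Cldn8*, a claudin of the tight epithelium of the collecting duct, had 162, 166 and 148 CPM in the controls and 68.7, 61.8 and 61.3 after LiCl (ENSMUSG00000050520). Every LiCl sample was thus below every control by a wide margin, and the log2 fold change was -1.31 (SE 0.06, adjusted p 1.18e-06). *Cldn4*, a sealing claudin of distal nephron and urothelium, had 173, 173 and 156 CPM and then 97.7, 96.9 and 98.2 (ENSMUSG00000047501). Its LiCl values were nearly identical to each other, and the log2 fold change was -0.78 (SE 0.05, adjusted p 6.52e-06).

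*Cldn23* had the lowest log2 fold change of all 41 genes, at a low level. Its CPM were 6.71, 6.35 and 5.65 in the controls and 1.90, 1.86 and 1.35 after LiCl (ENSMUSG00000055976), a log2 fold change of -1.87 (SE 0.17, adjusted p 3.79e-05). *Cldn1*, the claudin needed for the barrier of the skin, had 5.64, 6.12 and 5.29 CPM in the controls and 3.25, 3.40 and 3.44 after LiCl, and it fell by 0.76 on the log2 scale (SE 0.13, adjusted p 0.00125). *Cldn9* fell by 0.74 (SE 0.17, adjusted p 0.00666) from a mean of 3.00 CPM, and *Cldn6*, a claudin typical of embryonic epithelia, fell by 0.31 (SE 0.06, adjusted p 0.00382) from a far higher level. *Cldn6* had 127, 140 and 118 CPM in the controls and 103.8, 104.9 and 102.2 after LiCl. In these 6 of the 11 claudins (54.5%) each LiCl sample lay below each control, against 27.8% of all genes tested. They are the claudins that passed the test as lower, so the separation adds no support of its own.

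*Cldn2* was the claudin that rose. It forms a channel for cations and water in leaky epithelia such as the proximal tubule. Its counts were 12, 4 and 4 in controls against 17, 25 and 36 after LiCl (ENSMUSG00000047230), or 0.42, 0.13 and 0.13 CPM and 0.55, 0.89 and 1.28 CPM. The groups did not overlap, and the log2 fold change was 2.00 (SE 0.50, adjusted p 0.0109). A single control reached 10 counts, so the gene passed the rule for low counts through the LiCl group. The fold change ranged from 1.68 to 2.76 when one sample was left out at a time, and without LiCl replicates 1 and 3 it was 1.996 with a larger standard error (0.68 against 0.50), so the adjusted p was 0.0683.

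The remaining claudins did not pass the test. *Cldn3* and *Cldn7*, broadly expressed epithelial claudins, had log2 fold changes of -0.20 (adjusted p 0.0849) and -0.19 (adjusted p 0.0723). *Cldn12* had 52.5, 48.2 and 49.7 CPM in the controls and 52.6, 51.3 and 48.8 after LiCl, with a log2 fold change of 0.02 and a standard error of 0.06. *Cldn11*, a claudin known from myelin and Sertoli cells, had 135, 117 and 109 CPM and then 153, 120 and 112, so that replicate 1 was highest in both groups and the groups overlapped. Of 2 other claudins that were tested, *Cldn5*, a claudin of endothelium, had a log2 fold change of -0.05 (adjusted p 0.768) and *Cldn15* of 0.45 (adjusted p 0.425).

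Compared by FPKM, the summed level of the 11 claudins was 368.5 ± 22.1 (SD, n = 3) in the controls and 274 ± 15.6 (SD, n = 3) after LiCl, and the samples of the groups did not overlap. The composition changed with it. *Cldn8* contributed 18.0%, 18.2% and 18.0% of the claudin FPKM in the controls and 9.996%, 9.82% and 9.92% after LiCl, a share that varied little between samples of a group. The share of *Cldn4* was 24.7% ± 0.25 in the controls and 19.7% ± 1.11 after LiCl, and that of *Cldn23* 0.90% ± 0.04 and 0.34% ± 0.05. The share of *Cldn11* was 17.25% ± 1.42 and 25.0% ± 2.67, without overlap, although its own level did not pass the test. *Cldn4* ranked first among claudins in the controls. After LiCl it was *Cldn11*, with 68.8 ± 11.4 FPKM (63.6 ± 6.66 in the controls) against 60.3 ± 0.65 FPKM for *Cldn6*. Their ranges after LiCl overlapped. Within each LiCl sample *Cldn11* was above *Cldn6*, in replicate 3 by a small margin (60.33 against 59.58 FPKM). Shares add up to a whole, so a fall of some claudins raises the share of all others. They are shares in the whole ureter and not in the epithelium alone.

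**Figure D2:**
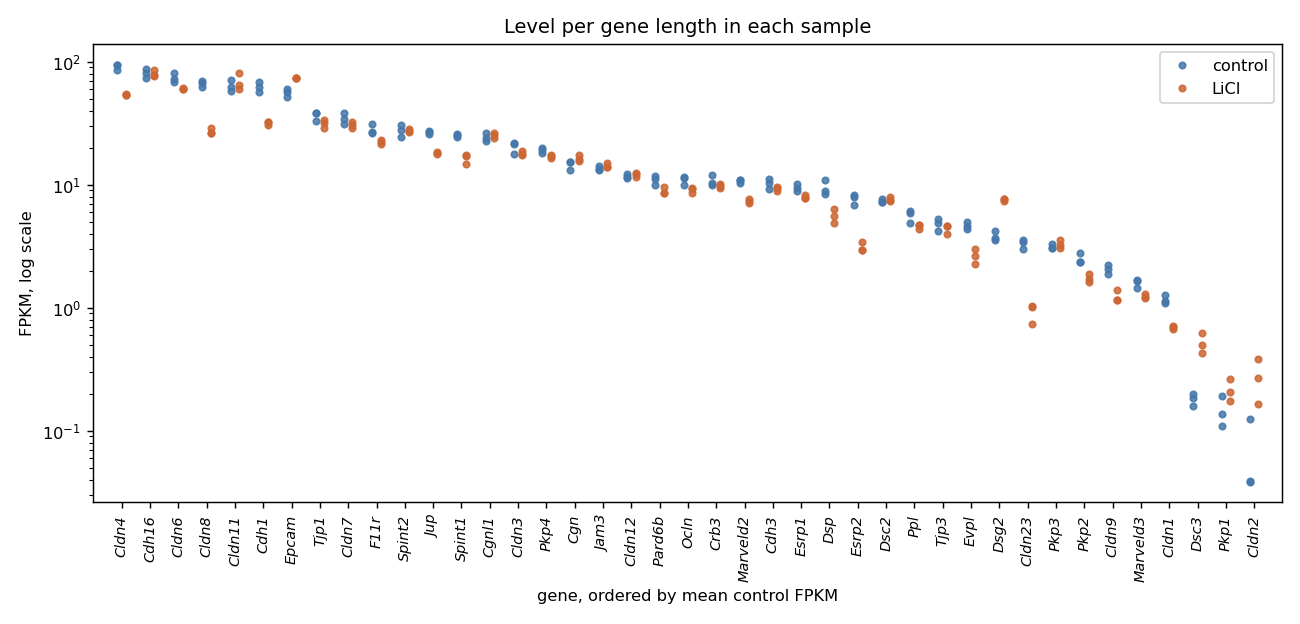
FPKM of the 41 junction genes on a logarithmic axis, ordered by the control mean, with each control and LiCl sample as a point. By their means, *Cldn4* was highest in the controls at 91.1 FPKM and *Cdh16* after LiCl at 79.9 FPKM, and *Cldn2* was lowest in the controls at 0.07 FPKM.

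The 3 genes of the strand-associated MARVEL proteins were all lower at the RNA level (100%, against 22.4% of all genes tested). *Marveld2*, which encodes tricellulin, the protein that closes the corners where 3 cells meet, had 37.6, 37.3 and 35.2 CPM in the controls and 23.9, 25.8 and 24.8 after LiCl (ENSMUSG00000021636), and its log2 fold change was -0.56 (SE 0.06, adjusted p 8.57e-05). *Ocln*, the gene of occludin, had 49.7, 47.7 and 42.6 CPM and then 38.9, 36.4 and 39.4, and fell by 0.29 (SE 0.07, adjusted p 0.00831). *Marveld3* fell by 0.38 (SE 0.12, adjusted p 0.0322), a call that was kept in 1 of the 6 fits without one sample. In all 3 genes each LiCl sample lay below each control, as was the case for 27.8% of all genes tested.

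Of the 2 genes of junctional adhesion molecules *F11r* fell (50%), and of the 4 genes of the cytoplasmic plaque of the tight junction *Tjp1* fell (25%). Of all genes tested 22.4% were lower, so the share of the plaque genes was near that of all genes. None of these genes rose, against 21.1% of all genes tested. *F11r*, which encodes JAM-A, had 71.8, 83.1 and 72.7 CPM in the controls and 61.0, 57.0 and 59.1 after LiCl, without overlap, and fell by 0.36 on the log2 scale (SE 0.07, adjusted p 0.00193). *Jam3* had a log2 fold change of 0.05 (adjusted p 0.517), and it shares exonic sequence with the antisense gene *Gm48796*. *Tjp1*, the gene of the scaffold ZO-1, had 308, 258 and 301 CPM and then 228, 263 and 246. These values overlapped, its log2 fold change was -0.24 (adjusted p 0.0328), and the call was kept in 2 of the 6 fits without one sample. *Tjp3*, the gene of ZO-3, had a log2 fold change of -0.14 (adjusted p 0.286), and its exons overlap those of *Apba3* on the other strand, which had more counts. *Cgn*, the gene of cingulin, had 94.7, 92.8 and 80.2 CPM in the controls and 106, 94.8 and 98.3 after LiCl. Each LiCl sample was above each control by a small margin, but the adjusted p was 0.0994. Its relative *Cgnl1* had a log2 fold change of 0.04 (SE 0.07).

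Among 18 further tight junction genes outside the list described so far, 3 rose (16.7%) and 8 fell (44.4%), against 21.1% and 22.4% of all genes tested, with -0.12 as median log2 fold change. The lowest values were those of *Igsf5* (-1.33, adjusted p 0.000808), which encodes JAM4, of *Ildr1* (-1.004, adjusted p 0.00181), a partner of tricellulin at tricellular contacts, and of *Magi3* (-0.41, adjusted p 0.00045), a scaffold. The highest were those of *Ildr2* (2.32, adjusted p 5.27e-07), which encodes another tricellular angulin, of *Sympk* (0.30, adjusted p 0.000517) and of *Tjap1* (0.20, adjusted p 0.0497). The angulin genes *Ildr1* and *Ildr2* thus had changes of opposite sign.

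The genes for adhesion molecules of the epithelial surface went in different directions. *Cdh1*, which encodes E-cadherin, had 319, 284 and 264 CPM in the controls and 140, 148 and 148 after LiCl (ENSMUSG00000000303). Every LiCl sample was far below the lowest control, with means of 289 ± 28.2 (SD, n = 3) and 145.6 ± 4.51 CPM (SD, n = 3). The log2 fold change of -0.99 (SE 0.07, adjusted p 8.51e-06), a ratio of 0.504, lay just short of the fold change threshold, and was beyond it without control replicate 3, without LiCl replicate 2 or with scaling by library size alone. *Epcam*, which encodes a homophilic adhesion molecule that binds claudins in epithelia, had 127, 132 and 115 CPM in the controls and 162, 162 and 161 after LiCl (ENSMUSG00000045394). It rose by 0.37 on the log2 scale (SE 0.06, adjusted p 0.00067), and all LiCl samples were above all controls.

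The cadherin genes *Cdh3* and *Cdh16* did not pass the test. *Cdh3*, which encodes P-cadherin, known from basal layers of stratified epithelia, had 41.3, 45.8 and 49.0 CPM in the controls and 41.5, 41.8 and 39.2 after LiCl. *Cdh16*, which encodes the kidney-specific cadherin of nephric duct derivatives, had 314, 334 and 282 CPM and then 322, 295 and 291. The groups overlapped for both, and the 95% interval of the log2 fold change of *Cdh16* was -0.19 to 0.12. The order of these genes per length was not the same in both groups. *Cdh1* and *Epcam* had 62.5 ± 5.77 and 56.2 ± 3.99 FPKM (SD, n = 3) in the controls, and 31.9 ± 1.00 and 73.7 ± 0.17 FPKM after LiCl. The control ranges of both genes overlapped, but within each control *Cdh1* was the higher one, and within each LiCl sample *Epcam* was. *Cdh16*, at 80.9 ± 6.96 and 79.9 ± 4.51 FPKM, had the second highest level of the 41 genes in the controls and the highest after LiCl.

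**Figure D3:**
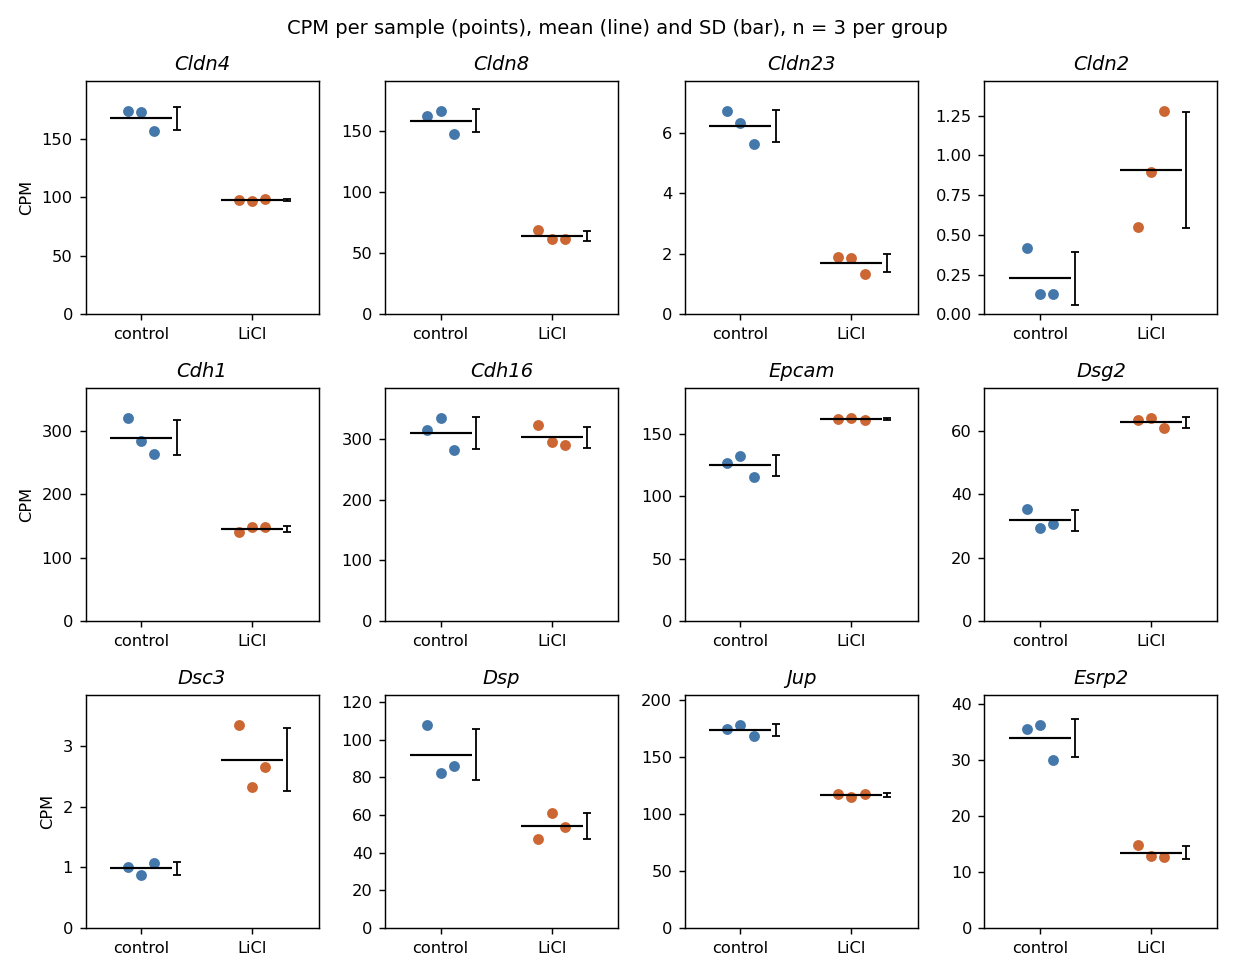
CPM of 12 junction genes in each of the 6 samples, with 1 panel per gene, points for samples, a line for the mean and a bar for the SD of each group (n = 3). *Cldn4*, *Cldn8*, *Cldn23*, *Cdh1*, *Dsp*, *Jup* and *Esrp2* lie lower in each LiCl sample, *Cldn2*, *Epcam*, *Dsg2* and *Dsc3* lie higher, and *Cdh16* overlaps.

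Of 17 tested genes of the adherens junction core, 1 rose (5.88%) and 9 fell (52.9%), against 21.1% and 22.4% of all genes tested, with -0.24 as median log2 fold change. Among those that fell were *Cdh11* (-0.79, adjusted p 2.63e-06), a cadherin of mesenchymal cells, *Cdh6* (-0.59, adjusted p 0.0103) and *Nectin2* (-0.52, adjusted p 9.61e-05). *Cdh13*, which encodes a cadherin without a cytoplasmic tail, rose (0.83, adjusted p 0.000332). *Cdh11* is expressed in mesenchyme, so this list does not describe the epithelium alone.

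Of the 3 tested desmosomal cadherins 2 rose, and of the 8 genes of the desmosomal plaque 6 fell, against 21.1% higher and 22.4% lower of all genes tested. The difference between these small groups was not tested. *Dsg2*, which encodes the desmoglein of simple epithelia, had 35.4, 29.3 and 30.6 CPM in the controls and 63.4, 64.0 and 60.8 after LiCl (ENSMUSG00000044393). All LiCl samples were far above all controls, and the log2 fold change was 0.98 (SE 0.07, adjusted p 1.19e-05), a ratio of 1.98. It was beyond the fold change threshold without control replicate 1, without LiCl replicate 3, without LiCl replicates 1 and 3 together, with DESeq2, and without the filter for low counts. *Dsc2*, which encodes the desmocollin that pairs with it in simple epithelia, had 40.9, 38.0 and 38.4 CPM in the controls and 41.6, 38.6 and 39.2 after LiCl. These values overlapped, and the 95% interval of its log2 fold change was -0.10 to 0.15.

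*Dsc3*, which encodes a desmocollin of the basal layers of stratified epithelia, was rare. Its counts were 29, 27 and 33 in controls against 104, 65 and 75 after LiCl (ENSMUSG00000059898), or 1.01, 0.87 and 1.08 CPM and 3.35, 2.33 and 2.66 CPM. All LiCl samples were above all controls, and the log2 fold change was 1.495 (SE 0.22, adjusted p 0.000587), with a range of 1.34 to 1.61 when one sample was left out. Per length it stayed far below the other desmosomal cadherins, with 0.18 ± 0.02 FPKM in the controls and 0.51 ± 0.10 FPKM after LiCl (SD, n = 3), against 7.33 ± 0.25 and 7.55 ± 0.30 FPKM for *Dsc2*. Per length, *Dsg2* was below *Dsc2* in the controls, at 3.80 ± 0.36 FPKM, and at a like level after LiCl, at 7.59 ± 0.19 FPKM. *Dsg3*, a desmoglein of stratified epithelia, reached 10 counts in LiCl replicate 3 and 3 counts in LiCl replicate 1, the libraries with the skeletal muscle signal, and had 0 counts in every other sample.

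The plaque genes that link desmosomal cadherins to keratins were lower. *Jup*, which encodes plakoglobin, a catenin of desmosomes and adherens junctions, had 175, 178 and 168 CPM in the controls and 117, 115 and 118 after LiCl (ENSMUSG00000001552), and its log2 fold change was -0.57 (SE 0.04, adjusted p 1.53e-05). *Dsp*, which encodes desmoplakin, the keratin-binding linker, had 108, 82.3 and 86.2 CPM and then 47.3, 61.1 and 53.8 (ENSMUSG00000054889), a log2 fold change of -0.77 (SE 0.12, adjusted p 0.000698). Its samples spread more than those of *Jup*, but in both genes all LiCl samples lay below all controls. The plakin genes *Evpl* and *Ppl*, whose products envoplakin and periplakin form part of the cornified envelope and are also found at desmosomes, fell by 0.84 (SE 0.10, adjusted p 0.000203) and 0.31 (SE 0.08, adjusted p 0.0157). *Evpl* had 32.5, 29.9 and 28.3 CPM in the controls and 16.9, 19.3 and 14.5 after LiCl. The call of *Ppl* was kept in 3 of the 6 fits without one sample.

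The plakophilins, armadillo proteins of the plaque, did not all pass the test. *Pkp2*, the plakophilin of simple epithelia, had 15.1, 12.8 and 12.7 CPM in the controls and 9.14, 10.02 and 8.58 after LiCl, without overlap, and fell by 0.55 on the log2 scale (SE 0.11, adjusted p 0.0027). *Pkp4*, which is found at adherens junctions as well, fell by 0.18 (SE 0.05, adjusted p 0.0231), a call kept in 2 of the 6 fits without one sample. *Pkp3* had 12.1, 11.2 and 11.2 CPM and then 12.8, 11.03 and 11.6, with a log2 fold change of 0.04 and a standard error of 0.09. *Pkp1*, the plakophilin of the upper layers of stratified epithelia, had 0.70, 0.97 and 0.55 CPM and then 0.87, 1.32 and 1.03, values that overlapped (log2 fold change 0.53, adjusted p 0.179). Of 2 tested genes from a list of 8 further desmosome genes, *Perp*, a tetraspan protein of desmosomes, fell by 0.51 (adjusted p 0.0188).

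In 7 pairs of related members, the level of one gene was set against that of the other within each sample, as a log2 ratio of counts. With 3 samples against 3, a two-sided exact permutation test cannot give a p below 0.1, and the 6 pairs whose groups did not overlap all reached this value (exact permutation p 0.1, 0.117 after Benjamini-Hochberg adjustment over 7 pairs). The share of such pairs among all gene pairs was not measured. Of all single genes tested, 26.4% had every LiCl sample above every control and 27.8% below, so separation was common. The ratio of *Dsc3* to *Dsc2* was -5.34, -5.45 and -5.15 in the controls and -3.64, -4.05 and -3.88 after LiCl, a difference of 1.46. The ratio of *Cdh3* to *Cdh1* was -2.95, -2.63 and -2.43 and then -1.76, -1.83 and -1.92, a difference of 0.84. These ratios were higher in every LiCl sample, for *Dsc3* to *Dsc2* with a change in the first gene and for *Cdh3* to *Cdh1* with a change in the second. For *Pkp1* to *Pkp2* the difference was 1.10 (-4.23 ± 0.44 and -3.13 ± 0.24) and for *Pkp3* to *Pkp2* 0.59. The ratio of *Tjp3* to *Tjp1* overlapped between the groups (difference 0.09, exact permutation p 0.8). The pair *Dsg3* and *Dsg2* was not computed because of the counts of 0.

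**Figure D4:**
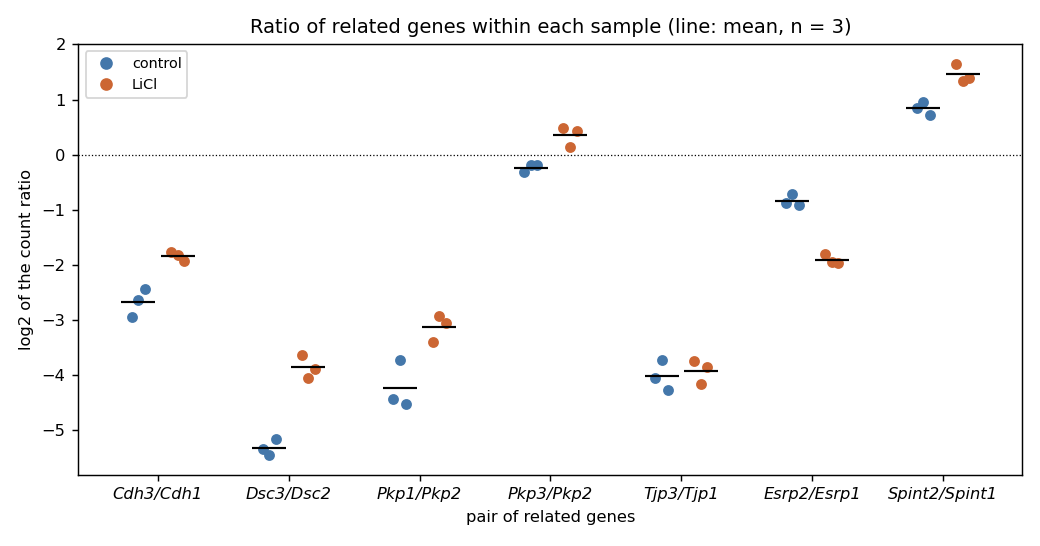
Log2 ratio of counts for 7 pairs of related junction genes, with a point for each of the 6 samples and a line for the mean of each group. The groups do not overlap for 6 pairs, and the ratio of *Esrp2* to *Esrp1* is the one that is lower after LiCl.

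Among the genes for splicing, protease inhibition and apical polarity, related members had unequal changes. *Esrp2* and *Esrp1* encode the splicing factors that maintain epithelial isoforms of transcripts. *Esrp2* had 35.4, 36.2 and 30.0 CPM in the controls and 14.7, 12.9 and 12.7 after LiCl (ENSMUSG00000084128), a log2 fold change of -1.33 (SE 0.09, adjusted p 8.51e-06). *Esrp1* had 65.4, 59.6 and 56.7 CPM and then 51.6, 49.4 and 49.3, and fell by 0.27 (SE 0.06, adjusted p 0.00632). In both genes all LiCl samples were below all controls, and their log2 ratio went from -0.84 ± 0.11 to -1.90 ± 0.08 (SD, n = 3, difference -1.06, exact permutation p 0.1). Exons of *Esrp2* overlap those of *Nfatc3*, which had a log2 fold change of 0.03 (adjusted p 0.685) and a mean of 3293 counts against 705.7 for *Esrp2*, and those of *1810019D21Rik*, which fell by 1.955 (adjusted p 7.02e-05) with a mean of 116 counts. Both lie on the other strand, and the strand setting of the counting is not given in the sources used here, so the value of *Esrp2* is uncertain to this extent.

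*Spint1*, which encodes the membrane inhibitor HAI-1 of matriptase and hepsin, had 71.6, 71.9 and 68.0 CPM in the controls and 41.1, 48.2 and 46.8 after LiCl (ENSMUSG00000027315), and fell by 0.64 on the log2 scale (SE 0.07, adjusted p 8.62e-05). Its relative *Spint2*, which encodes HAI-2, had 129, 139 and 112 CPM and then 129, 122 and 123, with a log2 fold change of -0.02 and a standard error of 0.07. The groups overlapped for *Spint2* and not for *Spint1*, and the log2 ratio of *Spint2* to *Spint1* differed by 0.62 (exact permutation p 0.1). *Pard6b*, a subunit of the PAR complex that sets the apical side, had 38.8, 40.04 and 33.9 CPM and then 32.4, 29.1 and 29.3, without overlap, and fell by 0.31 (SE 0.08, adjusted p 0.0094). *Crb3*, the Crumbs protein of epithelia, had a log2 fold change of -0.16 (adjusted p 0.165), and its exons overlap those of *Dennd1c* on the other strand.

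Lists of neighbouring systems are described by counts and medians alone, beside 21.1% higher and 22.4% lower of all genes tested. Of 19 polarity complex genes, 6 rose (31.6%) and 2 fell (10.5%), with 0.06 as median log2 fold change. The genes *Crb2* (1.18, adjusted p 0.000157), *Crb1* (0.81, adjusted p 0.00439) and *Scrib* (0.39, adjusted p 0.000169) rose, and the atypical protein kinase C genes *Prkcz* (-0.59, adjusted p 0.0047) and *Prkci* (-0.21, adjusted p 0.0168) fell. Of 9 genes for membrane serine proteases and related proteins, 1 rose (11.1%) and 3 fell (33.3%), with -0.30 as median log2 fold change. *Tmprss6* rose (0.91, adjusted p 0.0331) at low counts, 13, 10 and 11 in the controls and 24, 21 and 17 after LiCl. *Tmprss2* (-1.07, adjusted p 1.26e-05), *Plau* (-0.98, adjusted p 0.000416) and *Prss8* (-0.62, adjusted p 0.000165) fell.

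Of 20 transcription factor genes of epithelia, 3 rose (15.0%) and 12 fell (60%), against 21.1% and 22.4% of all genes tested, with -0.31 as median log2 fold change. *Foxa1* (-1.76, adjusted p 2.87e-06), *Pparg* (-1.43, adjusted p 2.69e-05) and *Ehf* (-1.31, adjusted p 0.000162), the first 2 of which are known regulators of urothelial genes, had the lowest values. *Ovol2* (0.81, adjusted p 0.00464), *Klf4* (0.65, adjusted p 0.00484) and *Lhx1* (0.48, adjusted p 0.0224) rose. Of 10 genes used as signs of epithelial to mesenchymal transition, 3 rose (30.0%) and 4 fell (40%), with -0.21 as median. *Snai1* (0.36, adjusted p 0.00322), *Vim* (0.30, adjusted p 0.00471) and *Zeb1* (0.22, adjusted p 0.00827) rose, while *Twist1* (-0.99, adjusted p 3e-05), *Acta2* (-0.56, adjusted p 0.0486) and *Fn1* (-0.47, adjusted p 0.0152) fell. Of the SNAI and ZEB genes of the list, the more abundant *Zeb2* fell (-0.45, adjusted p 0.00109, from 383 to 281 CPM), and *Snai2* had a log2 fold change of -0.06 (adjusted p 0.42); both are named after their values were seen. Genes such as *Vim*, *Twist1* and *Fn1* are known from mesenchyme, which these explants contain.

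**Figure D5:**
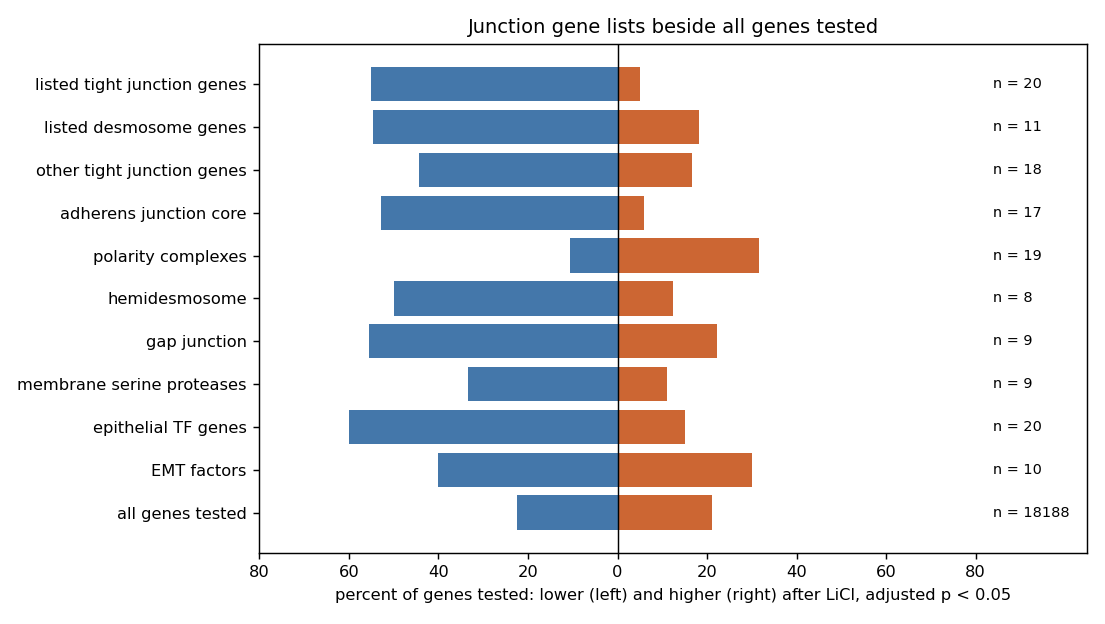
Percent of the genes tested in each list that were lower (bars to the left) or higher (bars to the right) after LiCl at an adjusted p under 0.05, with the number tested and all genes tested in the lowest line. The listed tight junction and desmosome genes had 55.0% and 54.5% lower, against 22.4% of all genes tested, and the polarity complexes had more genes higher than lower.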

How the data were processed

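RNA-Seq was performed on 6 samples of cultured ureters, 3 per group, and samples were grouped by their labels. The authors deposited raw counts per Ensembl gene identifier, without normalization, and FPKM values per sample. The submitters' processing notes list fastp 0.23, STAR 2.7, featureCounts 2.0, DESeq2 1.40 and GRCm39, whereas the methods of the study name HISAT2 as aligner. The annotation release and the strand setting of the counting are not given in the sources used here. The deposited FPKM were recomputed from counts: whole gene lengths, within 0.05 bases, were obtained for 100% of the values of 13480 genes with more than 50 counts in every sample when DESeq2 size factors were used. Symbols came from GENCODE vM21 (52073 of 56748 identifiers), exon overlaps from the same GRCm38 annotation, and promoters from RefSeq.

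The deposited counts, filtered by filterByExpr and scaled by TMM, were compared by the quasi-likelihood F test of edgeR 4.0.16 under R 4.3.3. P-values were adjusted by Benjamini and Hochberg's method over all genes tested, with a threshold of 0.05 for the adjusted p and of 1 for the size of the log2 fold change where a fold change was required, the thresholds of the study's methods. Total counts of 28473436 to 31266945 set the precision, and *Cldn2*, *Pkp1* and *Dsc3* rested on few counts, as did *Tmprss6* and *Gjb5* of the other lists. Ratios of pairs were tested with two-sided exact permutation tests. Members and gene lists were chosen with earlier results of these data known. All kept members are named, and of each other list up to 3 genes with the largest and up to 3 with the smallest log2 fold change among those past the adjusted p. One gene that this rule names is not reported here.

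Alternative fits used RLE factors, no scaling factor beyond library size, DESeq2 1.42.0, other count filters (none, or 10 counts in 3 or in all samples), no fold change minimum, and a block for the replicate number. In further fits 1 replicate was left out, or LiCl replicates 1 and 3 together. FPKM were fitted with limma 3.58.1 as log2(FPKM + 1) or log2(FPKM + 0.1) above a mean FPKM of 0.5, and unfiltered for the former. The scripts were tested on simulated counts.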

Additional observations from a re-analysis of the deposited data

How the results depend on the processing

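Of the 22 lower junction genes, 13 to 22 were also lower under each alternative fit of all samples or of a subset, with 13 when LiCl replicates 1 and 3 were left out together. Leaving out one sample gave 18 to 21 lower and 4 to 4 higher genes past the adjusted p, 3 to 4 called lower, 2 to 3 called higher, and 782 to 880 lower and 477 to 556 higher of all genes. Without a fold change minimum 22 members were called lower and 4 higher, and of all genes 4071 and 3844. When 10 counts were required in every sample, *Cldn2* was not tested and 1 member was called higher. With limma on FPKM 0 members were called higher in each of the 3 settings. In both filtered settings *Cldn2*, *Dsc3* and *Pkp1* were not tested, and 2 members were higher by adjusted p. Without the filter, *Cldn2* and *Dsc3*, with means of 0.27 and 0.51 FPKM after LiCl, lay below the added 1. A log2 fold change above 1 was thus out of reach for them, and the count of 0 says nothing about these genes. With limma, all genes called numbered 177 higher and 141 lower on log2(FPKM + 1), 430 lower on log2(FPKM + 0.1), and 171 and 139 without filter. Replicate numbers did not pair the samples (correlations of deviations -0.01, -0.18 and 0.13). With the replicate block, 19 members were lower, since *Marveld3* (adjusted p 0.0644), *Tjp1* (0.0814) and *Pkp4* (0.0638) no longer passed, and the 2 higher and 3 lower calls were kept. The sign changed in 14 values of 7 members, 0 of which passed the adjusted p. With 1 sample left out, *Cldn11* ranged from -0.044 to 0.19, *Cgnl1* from -0.0084 to 0.10, *Cdh16* from -0.094 to 0.027, *Dsc2* from -0.0037 to 0.060, *Pkp3* from -0.017 to 0.093, *Spint2* from -0.095 to 0.060, and the difference in the log2 ratio of *Tjp3* to *Tjp1* from -0.031 to 0.24. Without LiCl replicates 1 and 3, *Pkp3* had -0.051 and *Dsc2* -0.0092. With library size only, *Cldn12* had -0.012 and *Dsc2* -0.0092. *Spint2* had 0.0077 without filter and 0.0023, 0.0025 and 0.0023 in the 3 limma settings. The causes were not tested.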

Other observations

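Other contacts of epithelial cells were measured as well. Of 8 hemidesmosome genes, whose products anchor basal cells to the basement membrane, 1 rose and 4 fell (50%) after LiCl, against 21.1% and 22.4% of all genes tested, with -0.27 as median log2 fold change. The integrin genes *Itgb4* and *Itga6* fell by 0.52 (adjusted p 0.0144) and 0.28 (adjusted p 0.0412). *Lamb3*, which encodes a laminin chain, rose by 0.70 (adjusted p 0.000409).

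Of 9 gap junction genes, 2 rose (22.2%, near the share of all genes) and 5 fell (55.6%), with -0.45 as median log2 fold change in edgeR's quasi-likelihood test. *Gja5*, a connexin gene of arterial endothelium and heart, fell by 1.72 (adjusted p 3.41e-05), and *Gjb5* and *Gjb1*, connexin genes of epithelia, fell by 1.30 (adjusted p 0.0122) and 1.13 (adjusted p 0.000278). *Gjb5* rested on few counts, 27, 41 and 22 in the controls and 10, 14 and 11 after LiCl. *Gja1* and *Gjc1*, which are also expressed outside epithelia, rose by 0.45 (adjusted p 7.35e-05) and 0.25 (adjusted p 0.00289).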
